A study of Mus musculus with 7 samples.

Results

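Rfx6, Rfx3, Insm1, St18, Myt1, Mnx1, Glis3 and Esrrg encode DNA-binding transcription factors of the endocrine pancreas. They were taken from the count table by symbol, for their role, but with earlier results of these data known. They are 8 of the 23329 gene symbols in the table. All 8 passed the filter on low counts, as did 12480 genes in all. RNA came from Beta-TC6, a mouse insulinoma cell line from animals that carry a viral oncogene under an insulin promoter, so it models an immortalised beta cell grown alone, as a single line. The groups were wild-type cells given IL1B (interleukin-1 beta, an inflammatory cytokine; n = 3 libraries) and wild-type cells given vehicle (n = 4 libraries). Cells of both groups were grown in DMEM with 15% fetal bovine serum and had also been through a pulse of forskolin (10 µM for 1 h), a drug that raises cAMP and aligns circadian clocks. The IL1B dose, its duration and the hour of harvest are not known from the labels. The question set by the design is whether IL1B moved the transcripts of these factors.

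In the developing pancreas, endocrine cells arise from progenitors that briefly express Neurog3, and several of these factors act at or after that step. RFX6 and RFX3 belong to the regulatory factor X family, whose winged-helix domain binds the X-box; RFX6 is needed for endocrine differentiation and for mature beta-cell function, and RFX3 also drives genes of the primary cilium. INSM1 is a zinc-finger repressor of endocrine and neuroendocrine cells. MYT1 and ST18 (also called MYT3) are zinc-finger proteins of the MYT family. MNX1 is a homeodomain protein that keeps beta cells from taking other islet fates, GLIS3 is a Kruppel-like zinc-finger activator of the insulin gene, and ESRRG is an orphan nuclear receptor tied to the oxidative metabolism of mature beta cells.

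RFX proteins recognise the letters GTTGCC, the core of an X-box arm, and promoter windows of both RFX members hold them, which is why these windows are shown. A window runs from 250 bases before to 50 bases after an annotated RefSeq start site (build GRCm38.p6), and capitals mark the letters on either strand. The Rfx3 window is chr19:28011117-28011416 on the minus strand, with the motif 31 to 36 bases past the start site. The Rfx6 window is chr10:51685268-51685567 on the plus strand, with the motif on the opposite strand 17 to 22 bases past the start site; that start site lies 7762 bases inside the GENCODE gene.
Rfx3: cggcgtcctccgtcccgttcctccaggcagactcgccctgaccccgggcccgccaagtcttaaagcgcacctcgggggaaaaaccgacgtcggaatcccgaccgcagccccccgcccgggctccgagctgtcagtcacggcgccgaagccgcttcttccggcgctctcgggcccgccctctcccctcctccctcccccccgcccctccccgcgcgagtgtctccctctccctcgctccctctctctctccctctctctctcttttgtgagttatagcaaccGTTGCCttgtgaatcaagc
Rfx6: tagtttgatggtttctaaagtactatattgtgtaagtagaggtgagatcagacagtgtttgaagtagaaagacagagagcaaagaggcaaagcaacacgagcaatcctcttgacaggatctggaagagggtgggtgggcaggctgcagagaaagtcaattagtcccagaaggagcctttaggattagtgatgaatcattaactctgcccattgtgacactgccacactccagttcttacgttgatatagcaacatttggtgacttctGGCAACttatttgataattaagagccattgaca
Over the 11 windows of the 6 members in the promoter table, these 2 held GTTGCC (18.2%), against 12.5% of all 32851 windows, a share near the background. Insm1 and St18 had no window there, so the counts do not cover them, and most windows belong to Esrrg and Myt1. The E-box CACGTG (7.15% of all windows), the estrogen-related receptor element TCAAGGTCA (0.423%) and the NF-kB consensus (4.51%) had no match in the 11 windows, on either strand. These matches are letters in a window and not measured sites.

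The libraries held 6007723 to 6969745 counts in IL1B cells and 5335607 to 7513934 in vehicle cells. Nfkbia, the NF-kB target that encodes IkBa, checked the treatment label: it stood at 460 to 496 CPM in IL1B libraries and 29.5 to 33.0 CPM in vehicle libraries (counts per 1e6 counts, scaled by TMM). The 9 beta-cell markers all passed the filter, of which Pdx1 and Mafa fell, and summed to 39339 to 40575 CPM in IL1B and 35657 to 41413 CPM in vehicle. Of 9 markers of other islet endocrine cells 4 passed, with sums of 536 to 593 CPM in IL1B and 581 to 640 CPM in vehicle, carried by Gcg and Sst. Exocrine and duct markers summed to 20.1 to 21.8 CPM in IL1B and 18.9 to 23.6 CPM in vehicle, with Cpa1, Prss2 and Amy2a5 at 0 counts. Leukocyte markers summed to 3.04 to 4.52 CPM in IL1B and 2.82 to 4.38 CPM in vehicle, and stromal and endothelial markers to 5.25 to 7.15 CPM in IL1B and 4.64 to 7.58 CPM in vehicle. The second vehicle library stood apart: its deviation from the vehicle mean fell with transcript length (Spearman rho -0.54 across 11286 genes, which are not replicates). The other vehicle libraries had 0.22 to 0.30. All share a mean that includes the second library, so their positive values follow in part from it. Against their own mean, the IL1B libraries had -0.02 to 0.02.

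With IL1B, 4 of the 8 factors fell and none rose. Rfx6 and Esrrg fell most, by 1.57-fold and 1.59-fold, and Insm1 and St18 fell by 1.27-fold and 1.26-fold. Rfx3, Myt1, Mnx1 and Glis3 did not pass the threshold, a Benjamini-Hochberg adjusted p of 0.05 in edgeR's quasi-likelihood test over all 12480 tested genes. Of all tested genes, 11.0% passed, 3.25% lower and 7.76% higher. No member was higher at an unadjusted p under 0.05 either, nor with DESeq2 or limma-voom. The median log2 fold change was -0.20 over the 8 factors and -0.0087 over all tested genes. Together the 8 transcripts summed to 636 to 662 CPM in IL1B libraries and 761 to 825 CPM in vehicle libraries. In bulk RNA, fewer cells that express a gene and less RNA per cell cannot be told apart. The share of increases among all passing genes was 70.5%, but 60.3% with total-count scaling and 50.8% after correction for GC content and transcript length; the 4 calls among the factors held in each.

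**Figure D1:**
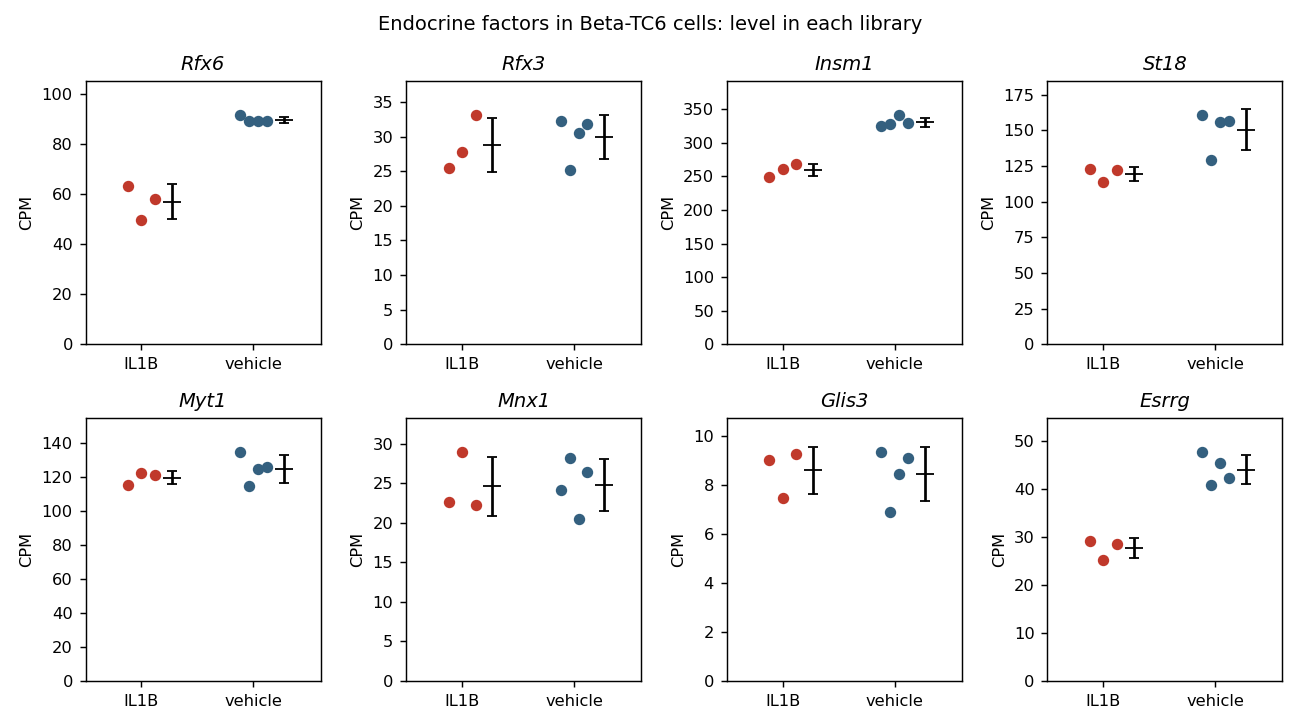
Each panel plots the level of a factor in CPM (y axis) in every library, IL1B at the left (3 points) and vehicle at the right (4 points), with the mean and SD beside the points. IL1B points lie below all vehicle points for Rfx6, Insm1, St18 and Esrrg, and the groups overlap for the other 4.

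Among the RFX members, Rfx6 fell and Rfx3 did not pass. Rfx6 (chromosome 10, 51677756 to 51730432, plus strand) had 63.5, 49.7 and 58.0 CPM in IL1B libraries, against 91.6, 89.3, 89.2 and 89.3 CPM in vehicle libraries. The vehicle values were nearly the same in all 4 libraries, the IL1B values were more spread, and the groups did not overlap. Its mean was 57.1 ± 6.96 CPM with IL1B (SD, n = 3) and 89.8 ± 1.18 CPM with vehicle (SD, n = 4), a change of -0.65 on the log2 scale with an SE of 0.08 and an adjusted p of 5.5e-06 in edgeR. Rfx3 (chromosome 19, 27761721 to 28011166, minus strand), the RFX member tied to cilia, had 25.5, 27.8 and 33.1 CPM in IL1B libraries, against 32.3, 25.2, 30.5 and 31.8 CPM in vehicle libraries. The groups overlapped throughout, and the 95% interval of its log2 fold change ran from -0.29 to 0.17 (edgeR adjusted p = 0.806). Its lowest vehicle value came from the second library.

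Insm1, the zinc-finger repressor, fell by 21.5%. The gene, a single exon on chromosome 2 (146221921 to 146225020, plus strand), had 249, 261 and 268 CPM in IL1B libraries, against 325, 328, 341 and 329 CPM in vehicle libraries. All IL1B values lay below all vehicle values, with little spread in either group. On the log2 scale the change was -0.35, with an SE of 0.05 (edgeR adjusted p = 0.000136).

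Of the MYT family members, St18 fell and Myt1 did not pass. St18 (chromosome 1, 6487231 to 6860940, plus strand) had 123, 114 and 122 CPM in IL1B libraries, against 160, 129, 156 and 156 CPM in vehicle libraries. The groups did not overlap, but the second vehicle library lay much nearer to the IL1B values than the others did. Its change of -0.33 in log2 units (SE 0.07) gave an edgeR adjusted p of 0.00467, and without that library the change was -0.40 (adjusted p = 3.5e-05). Myt1 (chromosome 2, 181763332 to 181827797, plus strand) had 115, 123 and 121 CPM in IL1B libraries, against 135, 115, 124 and 126 CPM in vehicle libraries. Its groups overlapped through the second vehicle library, and the interval of its log2 fold change ran from -0.20 to 0.07 (edgeR adjusted p = 0.634).

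Mnx1 and Glis3 had values that overlapped between the groups. Mnx1 (chromosome 5, 29473034 to 29478470, minus strand), the homeodomain factor, had 22.6, 28.9 and 22.3 CPM in IL1B libraries, against 24.1, 28.2, 20.5 and 26.4 CPM in vehicle libraries (log2 fold change -0.01, interval -0.27 to 0.24, edgeR adjusted p = 0.967). Glis3 (chromosome 19, 28258851 to 28680077, minus strand), the insulin gene activator, had 9.03, 7.48 and 9.28 CPM in IL1B libraries, against 9.35, 6.89, 8.46 and 9.10 CPM in vehicle libraries (log2 fold change 0.03, interval -0.31 to 0.36, edgeR adjusted p = 0.955). Glis3 rested on 45 to 62 counts per IL1B library and 44 to 71 counts per vehicle library, the fewest of the 8 factors, and its interval was the widest of the 8. The intervals of Rfx3, Myt1, Mnx1 and Glis3 all ended above the fitted changes of Rfx6, Esrrg, Insm1 and St18. The interval of St18 (-0.49 to -0.17) still overlapped each of these intervals, and that of Insm1 (-0.47 to -0.23) those of Rfx3, Mnx1 and Glis3. Those of Rfx6 and Esrrg overlapped none of them.

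Esrrg, the nuclear receptor of mature beta-cell metabolism, fell by 37.2%, with an interval that overlapped that of Rfx6. The gene (chromosome 1, 187608791 to 188214885, plus strand) had 29.1, 25.3 and 28.5 CPM in IL1B libraries, against 47.7, 40.7, 45.3 and 42.3 CPM in vehicle libraries. All 3 IL1B values lay well below the lowest vehicle value. In log2 units it changed by -0.67, with an SE of 0.09 and an edgeR adjusted p of 2.5e-05. Among the 406 genes that fell in all, 61 fell by at least as much as Esrrg and 66 by at least as much as Rfx6, and the median decrease of the 406 was 1.32-fold. All IL1B libraries lay below all vehicle libraries in 4 of the 8 factors, against 8.83% of all tested genes.

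Per kilobase of the longest annotated transcript, the order of levels in vehicle cells was Insm1, Rfx6, St18, Myt1, Mnx1, Esrrg, Rfx3 and Glis3. With IL1B, Insm1 stayed at the top with 83.7 ± 3.05 CPM per kb (SD, n = 3), against 107 ± 2.26 CPM per kb with vehicle (SD, n = 4). Rfx6 took rank 4 with IL1B, at 14.3 to 18.3 CPM per kb, and rank 2 with vehicle, at 25.8 to 26.5 CPM per kb. In vehicle cells the range of St18 (21.9 to 27.2 CPM per kb) overlapped those of both Rfx6 and Myt1 (20.8 to 24.4 CPM per kb), so its place between them is not fixed beyond the spread, while Rfx6 lay above Myt1 without overlap. With IL1B, Myt1 (20.9 to 22.2 CPM per kb) and St18 (19.4 to 20.8 CPM per kb) both stood above Rfx6 without overlap. Mnx1 was at 11.0 ± 1.67 CPM per kb with IL1B and 11.0 ± 1.48 CPM per kb with vehicle. Esrrg was at 5.14 ± 0.387 CPM per kb with IL1B and 8.19 ± 0.575 CPM per kb with vehicle. Rfx3 was at 3.15 ± 0.425 CPM per kb with IL1B and 3.27 ± 0.353 CPM per kb with vehicle, and Glis3 at 1.14 ± 0.130 CPM per kb with IL1B and 1.12 ± 0.147 CPM per kb with vehicle. The isoforms present in these cells were not measured, and another transcript length would shift these levels.

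Of 12 paralogs of these factors, 9 passed the filter; Rfx5 rose and none fell, also at an unadjusted edgeR p under 0.05 and with DESeq2 and limma-voom. A count of 1 in 9 is near the share of all tested genes that passed (11.0%, with 7.76% higher). Rfx5 encodes a subunit of the complex that switches on MHC class II genes. It had 30.6, 25.9 and 29.7 CPM in IL1B libraries, against 15.5, 16.1, 16.2 and 15.8 CPM in vehicle libraries, a rise of 1.81-fold, or 0.86 on the log2 scale with an SE of 0.10 (adjusted p = 4.1e-06 by edgeR). The IL1B values lay far above the vehicle values, but 26.8% of the exonic bases of Rfx5 overlap an antisense gene, and whether reads were counted by strand is not stated. Rfx1, Rfx2 and Rfx7 had log2 fold changes of 0.10, -0.26 and -0.10, Insm2 -0.28 and Myt1l 0.05. Glis1 had -0.54 with an interval from -1.10 to 0.01, Glis2 -0.03 and Esrra 0.02, with edgeR adjusted p from 0.234 to 0.953 over these 8 genes. Rfx4, Rfx8 and Esrrb stayed below the filter.

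**Figure D2:**
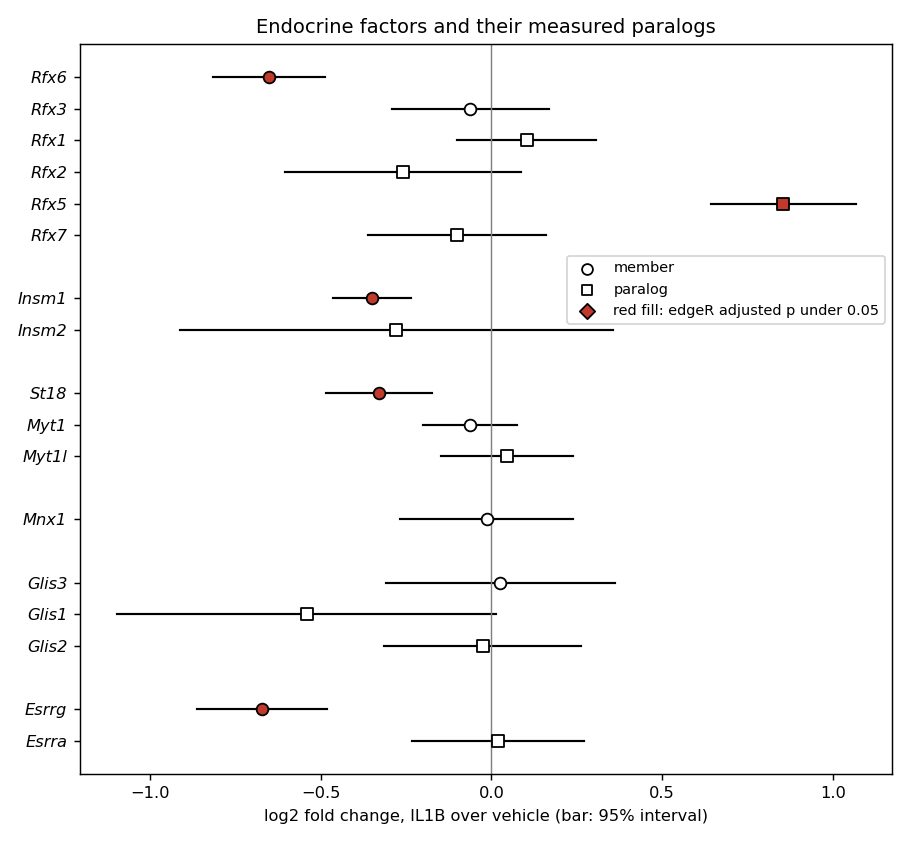
The fitted log2 fold change of IL1B over vehicle (x axis) is drawn with its 95% interval for each factor (circles) and measured paralog (squares), grouped by family, with red fill where the edgeR adjusted p was under 0.05. Rfx6, Insm1, St18 and Esrrg lie left of zero at -0.65, -0.35, -0.33 and -0.67, Rfx5 lies right of it at 0.86, and all other intervals cross zero.

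Members and paralogs were also set side by side as the ratio of their counts within each library, which does not depend on library scaling. The 5 pairs were chosen after the values had been seen, so the ratios are a description, and the difference in response within a pair was not tested. Rfx6 over Rfx3 was 2.49, 1.79 and 1.76 in IL1B libraries, against 2.84, 3.54, 2.92 and 2.81 in vehicle libraries. All IL1B ratios were the lower ones, by -0.60 in mean log2 ratio. Rfx6 over Rfx5 was 1.92 to 2.08 in IL1B libraries and 5.50 to 5.90 in vehicle libraries. This ratio also holds the rise of Rfx5 (log2 fold change 0.86), to which the limit on its antisense overlap applies. St18 over Myt1 was 0.931 to 1.07 in IL1B libraries and 1.13 to 1.25 in vehicle libraries. St18 over Myt1l was 1.70 to 1.98 in IL1B libraries and 2.40 to 2.48 in vehicle libraries; both genes were low in the second vehicle library. Esrrg over Esrra was 1.23 to 1.61 in IL1B libraries and 1.85 to 2.82 in vehicle libraries.

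**Figure D3:**
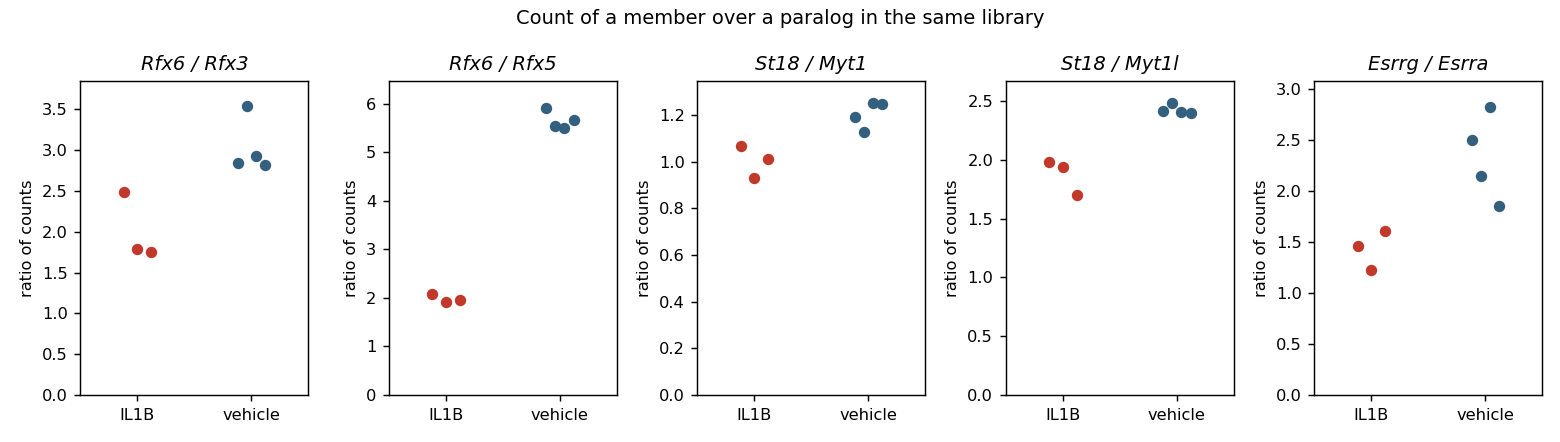
Each panel plots the ratio of the counts of a member to those of a paralog in the same library (y axis, no unit), IL1B at the left and vehicle at the right. IL1B ratios lie below all vehicle ratios in every panel, with Rfx6 over Rfx5 the farthest apart, at 1.92 to 2.08 with IL1B and 5.50 to 5.90 with vehicle. That gap holds both the fall of Rfx6 and the rise of Rfx5.

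Among genes that share the pathway, other endocrine lineage factors also fell. Of 25 listed, 18 passed the filter, 8 fell and 3 rose, against 3.25% lower and 7.76% higher among all tested genes, with a median log2 fold change of -0.10. Pdx1, the insulin gene regulator, was at 239 ± 7.96 CPM with IL1B and 354 ± 6.40 CPM with vehicle (log2 fold change -0.56), and Isl1, a LIM homeodomain factor, at 233 ± 15.4 CPM with IL1B and 351 ± 7.13 CPM with vehicle (-0.59; SD, n = 3 and n = 4). Among those that rose were Sox4, at 102 CPM with IL1B and 40.7 CPM with vehicle, and Gata6, at 4.87 CPM with IL1B and 1.37 CPM with vehicle (Gata6 was named after its values were seen). Of the exonic bases of Sox4, 54.6% overlap a gene on the opposite strand. Neurog3, the switch of endocrine commitment, was below the filter with 1 count in the IL1B group and 0 in the vehicle group. Irx2, a marker of other islet endocrine cells, was also lower, at 5.16 CPM with IL1B and 9.19 CPM with vehicle (edgeR adjusted p = 0.00228), while Gcg (267 CPM with IL1B and 311 CPM with vehicle, adjusted p = 0.0887) and Sst (293 CPM with IL1B and 288 CPM with vehicle, adjusted p = 0.875) did not pass; their part in these decreases was not tested.

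Cofactors, beta-cell function genes and cilium genes were counted in the same fit, in which 11.0% of all tested genes passed (3.25% lower, 7.76% higher). Of 18 cofactors that work with these families, Sin3a, the scaffold of a histone deacetylase complex, rose 1.59-fold (104 CPM with IL1B, 65.6 CPM with vehicle) and none fell (2 lower at an unadjusted p under 0.05, 0 with DESeq2 and limma-voom). The other 17 cofactors had log2 fold changes from -0.31 to 0.20. The 19 measured beta-cell function genes were listed for a tie to such factors, and their dependence on them was not tested. Kcnj11 (a potassium channel subunit, log2 fold change 0.57) and Ero1lb (an endoplasmic reticulum oxidase, 0.20) rose. Ffar1 (a fatty acid receptor, -0.87) and Glp1r (an incretin receptor, -0.34) fell. Glp1r no longer passed when IL1B library 1 or 3, or else vehicle library 1 or 4, was left out, with edgeR adjusted p between 0.0950 and 0.143. Of 25 measured primary cilium genes, a class that RFX proteins regulate, none passed in either direction, against 11.0% of all tested genes (1 higher and 1 lower at an unadjusted edgeR p under 0.05, 0 with DESeq2 and limma-voom), with log2 fold changes from -0.29 to 0.23 and a median of 0.02. Without the second vehicle library, the counts were 3 higher and 1 lower among cofactors, 5 higher and 2 lower among beta-cell function genes, and 0 higher and 1 lower among cilium genes.

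**Figure D4:**
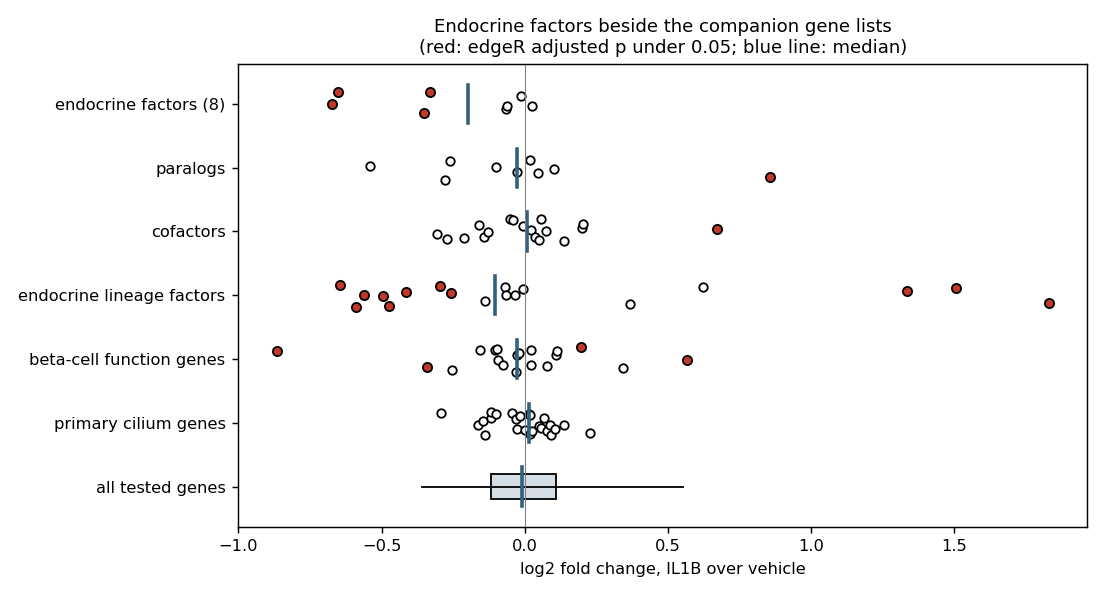
Points give the log2 fold change of IL1B over vehicle (x axis) for each tested gene of a list (rows), red where the edgeR adjusted p was under 0.05, with the list's median as a blue line; the box shows the quartiles of all tested genes and its whiskers the 5th and 95th percentiles, -0.36 and 0.55. The 4 red points of the endocrine factors lie between -0.67 and -0.33, and the cilium genes hold no red point.

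The genes with the profiles nearest to the 4 members that fell were found by the root mean square difference of log2 CPM over the 7 libraries, each gene set to its own vehicle mean, among 10894 other genes with at least 5 CPM. Nearest to Rfx6 were Isl1 (difference 0.07) and Mrgpre (0.07), a Mas-related receptor gene with 8.12 CPM in IL1B and 13.1 CPM in vehicle. Nearest to Insm1 were Nipa1, a magnesium transporter gene (0.04), and Armc10 (0.04). Nearest to St18 were Slc7a14 (0.02) and Tjp1 (0.03), which encodes a tight junction scaffold. Nearest to Esrrg were Scrt1 (0.08), a zinc-finger repressor gene, with 21.5 CPM in IL1B and 32.9 CPM in vehicle, and Slc16a9 (0.09), a transporter gene. All 8 of these genes fell by edgeR, with log2 fold changes from -0.69 to -0.31. They were chosen for profiles like those of members that fell, so a similar decrease was built in and is no separate result. With DESeq2, Nipa1 (adjusted p = 0.137) and Slc16a9 (adjusted p = 0.128) did not pass. Leaving out some single libraries also ended the calls of these 2 genes (edgeR adjusted p up to 0.0820).

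The calls on the 8 factors held under the other settings tried. Rfx6, Insm1, St18 and Esrrg passed lower, and the other 4 did not pass, under all 16 alternatives, which changed the scaling, the filter, the test or the libraries. Over these, the log2 fold change ran from -0.74 to -0.56 for Rfx6, from -0.71 to -0.61 for Esrrg, from -0.48 to -0.32 for Insm1 and from -0.40 to -0.30 for St18. The highest adjusted p among these was 0.0283, for St18.

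**Figure D5:**
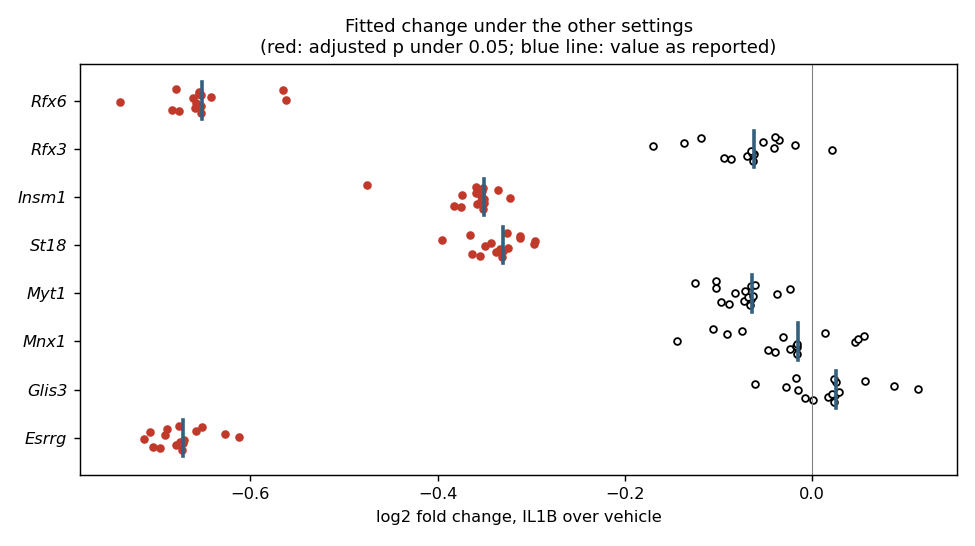
For each factor (rows) the points give the log2 fold change of IL1B over vehicle (x axis) under the 16 other settings, red where the adjusted p was under 0.05, and the blue line the value as reported. All points of Rfx6, Insm1, St18 and Esrrg are red and negative, and none of the other 4 factors has a red point.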

How the data were processed

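RNA was measured in 7 libraries of Beta-TC6 cells. The authors deposited a table of raw counts per gene symbol; per the submitters' processing notes the build was mm10 and the tools named, without roles, include STAR, RSEM and DESeq2. Which tool made these counts, the annotation and the strand setting are not stated. IL1B columns are numbered 1 to 3 and IL1B titles 1, 3 and 4, so they were assigned to the group only. No source says that the libraries of a group came from separate cultures; the spread behind each p-value is that between libraries and may be technical. No labels give a batch. Pairs of libraries of a group differed by more than sampling noise (chi-square per degree of freedom 1.51 to 4.68 over 9 pairs). Pairs with the second library of either group differed most. They had 3.70 to 4.68 in vehicle and 2.79 and 4.04 in IL1B. The other pairs had 1.51 to 1.58 in vehicle and 1.71 in IL1B.

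The deposited counts were fitted with edgeR 4.0.16 (R 4.3.3), using TMM scaling, filterByExpr and the quasi-likelihood F test over all 7 libraries with no covariate, adjusted by Benjamini-Hochberg over 12480 genes. An SE was derived from the F statistic, and 95% intervals use the matching t quantile. On counts simulated from these libraries (12463 genes), the test recovered 40.4% of 47 genes with a 1.25-fold change. It recovered 75.8% of 62 at 1.5-fold and 93% of 43 at 2-fold, and 5.84% of calls were false. Far fewer genes were changed there than the 11.0% that passed in the data. The Benjamini-Hochberg cut depends on that share, and no trend with transcript length was simulated, so recovery in the data may differ. Alternatives used DESeq2 1.42.0 and limma-voom (limma 3.58.1), 3 other scalings, 2 other filters, left-out libraries and splines on GC content and length. Coordinates are GENCODE models of GRCm38, the assembly of mm10; promoter windows are from RefSeq. No factor's longest transcript shares over 2.45% of its length with another gene at 95% identity (blastn 2.17.0), and no factor overlaps exons of another gene.

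The factors, lists and tests were chosen with earlier results of these data known. Genes were named by rule: all 8 factors, their measured paralogs, from each list the 4 passing genes lowest in adjusted p (or fewer), and the 2 nearest profiles of each passing factor. A gene that this rule names among the lineage factors is not reported here.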

Additional observations from a re-analysis of the deposited data

Results flagged for a closer look

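Dixon's test over the 4 vehicle libraries marked a single distant library in 4 of 34 named genes; chance marks about 1 in 20, and the genes are not independent, since Slc7a14 was named for a profile like that of St18. For Rfx6, the IL1B libraries were at 49.7 to 63.5 CPM, the first vehicle library at 91.6 CPM and the other vehicle libraries at 89.2 to 89.3 CPM, a gap of small size. The second vehicle library was low for the other 3 genes. For St18, the IL1B libraries were at 114 to 123 CPM, that library at 129 CPM and the other vehicle libraries at 156 to 160 CPM. For Myt1l, the IL1B libraries were at 58.7 to 71.9 CPM, that library at 52.0 CPM and the others at 64.7 to 66.5 CPM. For Slc7a14, the IL1B libraries were at 236 to 251 CPM, that library at 260 CPM and the others at 315 to 317 CPM. It is the library whose deviation fell with transcript length; the part of this trend in the 3 values was not tested.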

How the results depend on the processing

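The count of endocrine factors that fell (4 of 8) and rose (0) was the same under all 16 alternatives. The count over all companion lists was 17; leaving out both second libraries gave 26. Of all genes, 406 fell; 260 fell with DESeq2, 676 with both second libraries left out and 885 with the correction for GC content and length, and leaving out single libraries gave 252 to 589. The cause was not tested. No paired analysis was possible because the IL1B columns do not carry the replicate numbers of the labels. The median log2 fold change of all genes ran from -0.044 to -0.0038 over the settings. Glis3, at 44 to 71 counts per library, rests on the fewest counts of the 8; intervals cover the spread between libraries of this line only.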
